A study of Mus musculus with 7 samples.

Results

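Angiopoietins, angiopoietin-like proteins and vascular endothelial growth factors (VEGFs) were followed in C2C12 cells, a mouse muscle line. The cells had been incubated with exosomes from other C2C12 cultures. The genes were chosen by name, but with earlier results of these data known, so counts over them are a description. Every non-control probe of the array whose gene name was Angptl1, Angptl2, Angptl4, Angptl6, Angptl7, Angpt1, Angpt2, Vegfa, Vegfb or Vegfc was kept. This gave 11 of 39429 probes and 10 of 31829 gene names, with a pair of probes for Vegfa and 1 for each other gene. The comparison asked whether exosomes released by lipid-loaded muscle cells alter gene expression in recipient muscle cells.

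Donor C2C12 myotubes were given 0.5 mM palmitate or the carrier BSA alone, and their exosomes, pelleted by ultracentrifugation, are called EXO-Palm and Exo-BSA in the labels and EXO-Post Palm and EXO-Post BSA here. Recipient C2C12 cells were incubated with one or the other for 24 h, and their RNA was measured on 1-colour Agilent arrays, 4 from cultures given EXO-Post BSA and 3 from cultures given EXO-Post Palm. Every culture therefore received exosomes, and no culture without exosomes was analysed here. The labels call the recipients myoblasts and the study calls them myotubes, and the cells are of a single line in culture. The arrays are labelled biological replicates, but nothing says that each came from its own exosome preparation, so the p-values measure the spread between these 7 arrays.

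Angiopoietins are secreted ligands of the receptor Tek (Tie2) on endothelial cells, where Angpt1 stabilises vessels and Angpt2 mostly opposes it. VEGFs bind the receptors Flt1, Kdr and Flt4, and muscle fibres are a source of Vegfa, which maintains their capillaries. Angiopoietin-like proteins share the fold of angiopoietins but do not bind Tek, and several act on metabolism, best known among them Angptl4, an inhibitor of lipoprotein lipase that PPARs and hypoxia induce.

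The array measures each gene through a 60-base probe. All 11 probes carried a RefSeq accession whose symbol in the mouse reference table was the gene name of the array, and none of their spots carried an outlier mark on any array. The first 30 bases of 4 probes are given, as deposited and 5′ to 3′, for the genes on which the results turn: both genes that changed, Vegfa, through 1 of its probes, and Angpt1, the activating ligand of Tek.
Angptl4: atggtgctgttgtaggtgctgtggatgcac
Angptl7: taaccctgaggtcacttaacccattttccc
Vegfa (A_52_P638895): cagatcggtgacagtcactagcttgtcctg
Angpt1: catgtgtgtagcaatttgatacgcatagct

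On mm9, the build of the array annotation, the Angptl4 probe covers chr17:33911880-33911939 and the Angptl7 probe chr4:147869984-147870043, both on the minus strand. Of the Vegfa probes, which do not overlap, A_52_P638895 lies at chr17:46154387-46154446. Angpt1 is probed at chr15:42256335-42256394, Angpt2 at chr8:18691458-18691517, Vegfb at chr19:7057245-7057304 and Vegfc at chr8:55271533-55271592. The probes for Angptl6 (chr9:20678326-20678385), Angptl2 (chr2:33102102-33102159) and Angptl1 (chr1:158788711-158790554) follow, the last spread over 1844 bases. Exon and UTR positions of the probes were not worked out, because no mm9 gene models were used here.

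The promoter of Angptl7, the gene with the largest fitted rise among the 10, is shown because its transcript changed. RefSeq places it at chr4:148500413-148500712 on the minus strand of GRCm38.p6, a build that differs from the one of the probes, with 250 bases before the start of transcription and 50 after. Promoters of 7 of the 10 genes were at hand, and none for Angptl4, Angpt1 or Angpt2.
Angptl7 promoter: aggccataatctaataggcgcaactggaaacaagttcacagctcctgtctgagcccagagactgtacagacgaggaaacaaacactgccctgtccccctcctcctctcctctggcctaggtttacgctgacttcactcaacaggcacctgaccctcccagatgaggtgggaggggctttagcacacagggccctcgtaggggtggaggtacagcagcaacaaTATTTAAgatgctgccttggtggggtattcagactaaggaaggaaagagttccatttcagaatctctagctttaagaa
The capitals mark the motif TATTTAA, which begins 28 bases before the start, resembles a TATA box and was searched for after the sequence had been read. On either strand, 4.51% of 32851 mouse promoters of this length hold it. The hypoxia motifs ACGTG (19.6% of promoters) and GCGTG (32.4%), the nuclear receptor half-site AGGTCA (16.3%), the AP-1 motif TGACTCA (5.20%), the E-box CAGCTG (16.3%) and TATAAA (13.6%) were not among its letters. Among the other members, 1 of the promoter entries of Vegfa held ACGTG at -211 and GCGTG at -218. Vegfb held GCGTG at -237 and -81 and AGGTCA at -241 and -73, the pair at -241 and -237 overlapping. Angptl2 held CAGCTG at -248, -230 and -46 and Angptl1 at -71, and no motif searched was found in the entries of Angptl6 and Vegfc.

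Levels are given as log2 of the processed spot intensity after subtraction of the array's 75th percentile, so that 0 is that percentile, and changes are differences between arrays for the same probe. The percentile lay between 549.4 and 1621 intensity units, and by the call that the scanner software makes for each spot, 48.5 to 70.3% of the probes stood well above background on an array. EXO-Post Palm replicate 1 shared slide 1 with EXO-Post BSA replicates 1 and 2, and EXO-Post Palm replicate 3 shared slide 3 with EXO-Post BSA replicate 4, whereas EXO-Post BSA replicate 3 and EXO-Post Palm replicate 2 were each alone among these arrays on a slide. Testing with limma required that 75% or more of a group's arrays passed this call, and a probe was called at a Benjamini-Hochberg adjusted p under 0.05 over all 21589 tested probes.

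Of the 11 probes, 10 were tested, 9 were well above background on all 7 arrays, and 2 were called, Angptl7 and Angptl4, both higher with EXO-Post Palm. Over all tested probes, 0.533% were called, and 0.463% were called as higher. The median log2 fold change was 0.24 over the 10 tested probes and -0.02 over all tested probes. With EXO-Post Palm 8 of the 10 were higher, against 10216 of all 21589 tested probes. For Angptl7 and Angptl4 alone among the 10, all EXO-Post Palm arrays lay on 1 side of all EXO-Post BSA arrays, which was so for 11.3% of all tested probes. The other 8 probes had adjusted p-values of 0.661 to 0.969 by limma and none had an unadjusted p under 0.05, which 10% of all tested probes had.

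**Figure D1:**
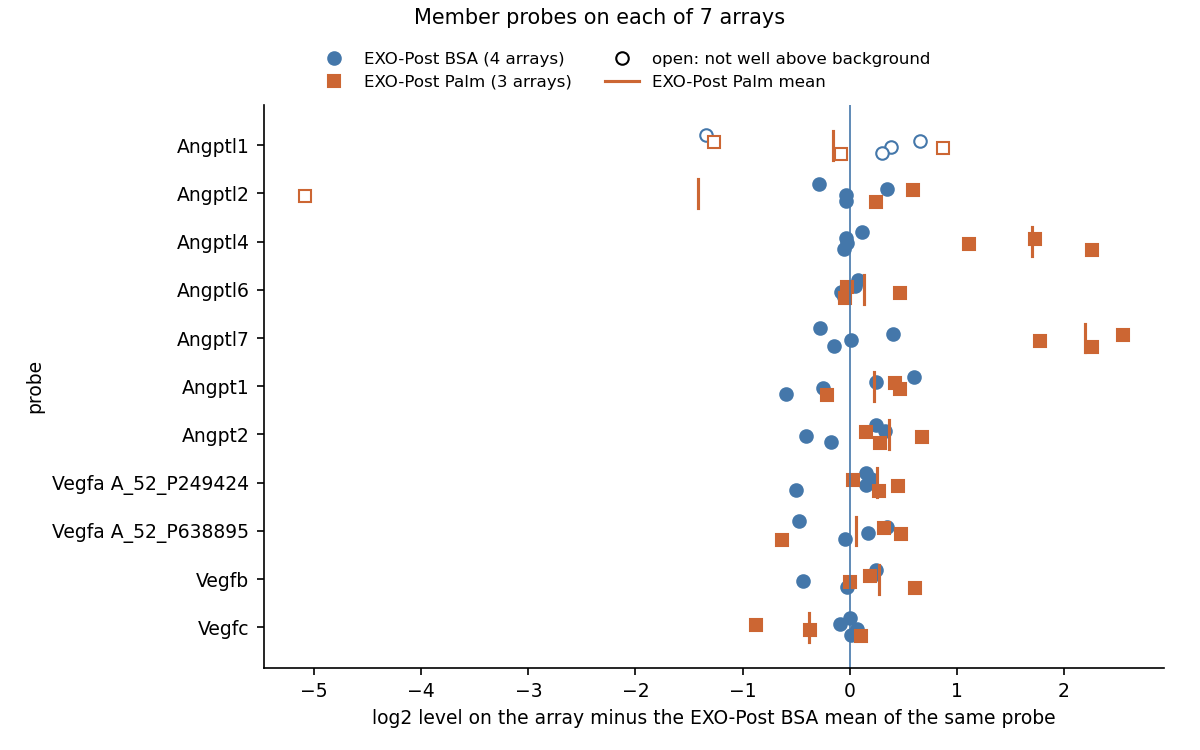
Level of each of the 11 probes on each of the 7 arrays, as log2 level minus the EXO-Post BSA mean of the same probe (x axis) for each probe (y axis), with open symbols where the spot was not well above background. For Angptl4 and Angptl7 the 3 EXO-Post Palm arrays lie to the right of all EXO-Post BSA arrays, and for Angptl2 a single open EXO-Post Palm symbol lies far to the left.

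Angptl7, a secreted angiopoietin-like protein known mainly from the eye, showed the largest fitted rise. Its level was -2.72, -2.03, -2.43 and -2.58 under EXO-Post BSA and 0.11, -0.67 and -0.18 under EXO-Post Palm, each in the order of the replicate numbers. Every EXO-Post Palm array lay above every EXO-Post BSA array, and the probe was well above background on all 7. The means were -2.44 ± 0.30 (SD, n = 4) and -0.24 ± 0.39 (SD, n = 3). The log2 fold change was 2.20 (standard error 0.263, 95% interval 1.60 to 2.80, limma adjusted p = 0.0143), a 4.59-fold difference. An exact permutation test gave p = 0.0286 (2-sided), the lowest value that 35 ways of dividing the arrays can give. It is unadjusted, takes no account of slide and largely restates the lack of overlap, which 11.3% of all tested probes showed.

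The Angptl7 rise was present within both slides that held both groups, at 2.49 on slide 1 and 2.41 on slide 3 on the log2 scale. With slide as a block it was 2.45 (limma adjusted p = 0.0330). That fit takes its estimate from slides 1 and 3 only, with 2 residual degrees of freedom. The rise did not pass without EXO-Post Palm replicate 1 (2.02, adjusted p = 0.0697) or without EXO-Post Palm replicate 3 (2.17, adjusted p = 0.0807), and passed when any other array was left out. Its size differed with the processing. It was 2.19 with quantile normalisation alone (adjusted p = 0.0101), 1.35 with normexp correction and quantile normalisation of the median spot signal (adjusted p = 0.0252) and 1.53 in the authors' own log2 values (adjusted p = 0.0220). Background correction was not varied by itself. With EXO-Post BSA the processed intensity of this spot was 121.1 to 220.7, against 408.7 to 1752 with EXO-Post Palm.

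Angptl4, which inhibits lipoprotein lipase and so limits the uptake of triacylglycerol fatty acids, was the other gene that rose. In the same order of replicates its level was 2.25, 2.10, 2.11 and 2.08 under EXO-Post BSA and 3.86, 3.25 and 4.40 under EXO-Post Palm. The EXO-Post BSA arrays were close together and the EXO-Post Palm arrays were spread over more than 1 log2 unit, all above them. The means were 2.14 ± 0.08 (SD, n = 4) and 3.84 ± 0.57 (SD, n = 3). The log2 fold change was 1.70 (standard error 0.276, 95% interval 1.08 to 2.33, limma adjusted p = 0.0436), a 3.25-fold difference, and the exact permutation test again gave p = 0.0286 (2-sided).

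Within slides the Angptl4 difference was 1.69 on slide 1 and 2.31 on slide 3, and with slide as a block it was 1.96 (limma adjusted p = 0.0421). The call lay close to the threshold. Leaving out 1 array at a time gave changes of 1.42 to 1.99, but the adjusted p was under 0.05 in 1 of these 7 fits, that without EXO-Post Palm replicate 2 (adjusted p = 0.0145). In the other 6 it ran from 0.0812, without EXO-Post BSA replicate 4, to 0.144, without EXO-Post Palm replicate 3. Centring on the median of each array moved it to 0.0538. The signal was far from background, with processed intensities of 3074 to 5500 under EXO-Post BSA and 6184 to 23588 under EXO-Post Palm.

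**Figure D2:**
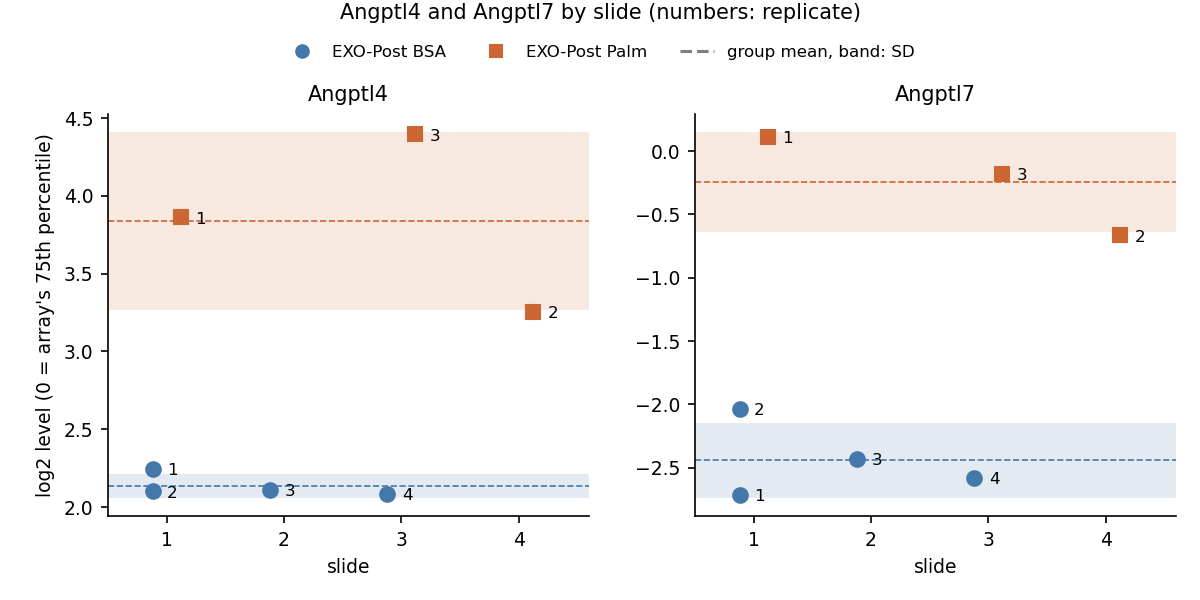
Log2 level (y axis, 0 is the array's 75th percentile) of Angptl4 and Angptl7 by slide (x axis), with circles for EXO-Post BSA, squares for EXO-Post Palm, replicate numbers beside the symbols, dashed lines at the group means and bands of 1 SD. On slides 1 and 3 the EXO-Post Palm array lies above the EXO-Post BSA arrays in both panels.

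**Figure D3:**
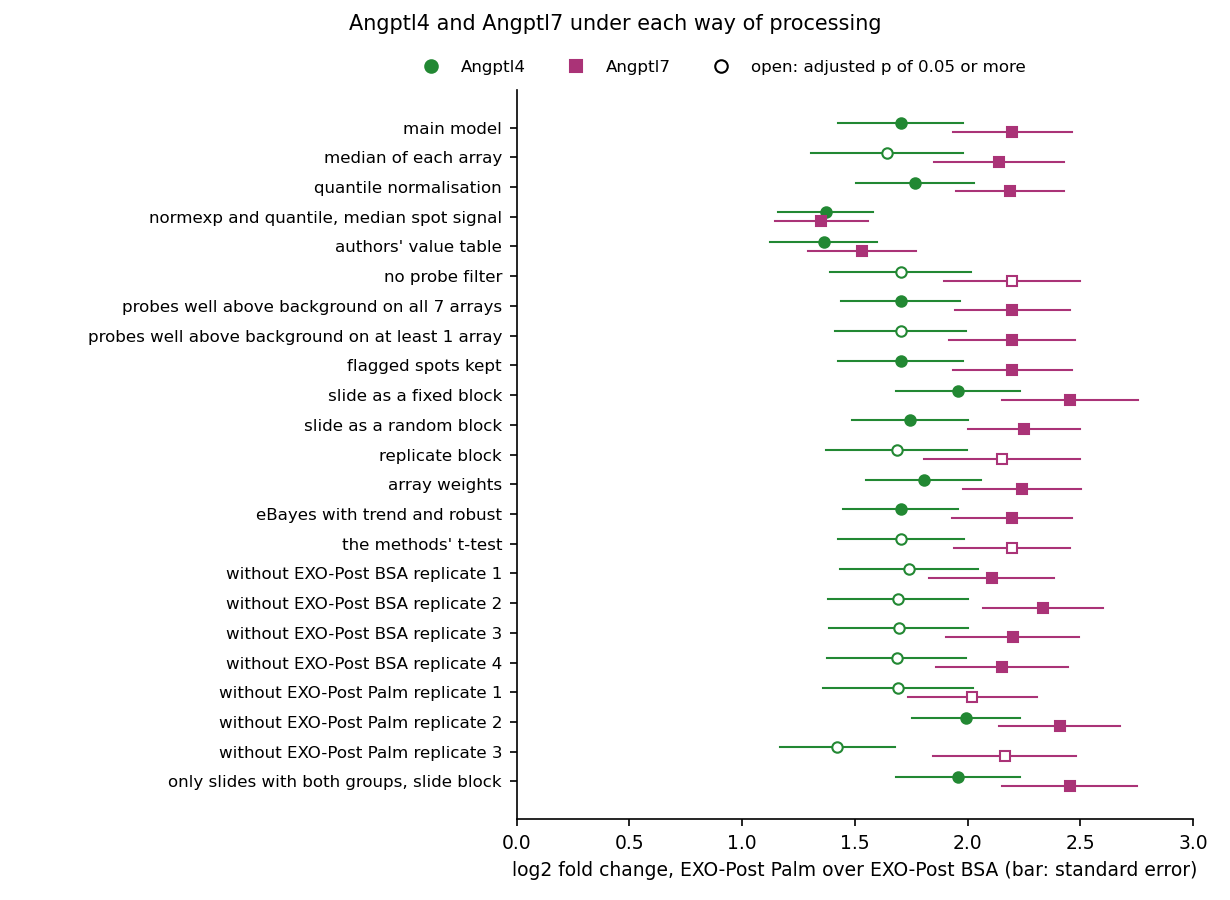
Log2 fold change (x axis, bars are standard errors) of Angptl4 and Angptl7 under the main model and each other way of processing or testing (y axis), filled where the adjusted p is under 0.05. Both genes are higher with EXO-Post Palm in every row, Angptl4 between 1.36 and 1.99 and Angptl7 between 1.35 and 2.45. Rows that change only the probe filter, marked spots or the test, and the trended and robust fit, cannot move the fold change.

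The other angiopoietin-like genes gave no call. Angptl6 is a circulating factor linked to energy expenditure. Its level was 0.19, 0.15, 0.03 and 0.05 with EXO-Post BSA and 0.08, 0.58 and 0.06 with EXO-Post Palm, so that EXO-Post Palm replicate 2 stood above the rest and the groups overlapped. The log2 fold change was 0.13 (95% interval -0.34 to 0.61, limma adjusted p = 0.867), and it was -0.04 without that array.

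Angptl2, a secreted protein linked to inflammation in adipose tissue, was well above background on 6 of the 7 arrays. Its level was -1.66, -1.02, -1.41 and -1.40 with EXO-Post BSA and -0.78, -6.46 and -1.13 with EXO-Post Palm. EXO-Post Palm replicate 2, the array that was not well above background, had a processed intensity of 7.37, against 251.2 to 944.4 on the other 6, and its median spot brightness was 67 over a local background of 38. The log2 fold change of -1.42 (limma adjusted p = 0.731, standard error 1.19) rested on this spot. Leaving out this array gave 0.42 (adjusted p = 0.664), with differences of 0.56 on slide 1 and 0.27 on slide 3, so no direction can be given for Angptl2. Angptl1 was well above background on none of the 7 arrays, with processed intensities of 7.90 to 24.7, and was not tested.

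Of the angiopoietins, Angpt1 was at 2.66, 2.30, 1.81 and 1.47 with EXO-Post BSA and at 2.48, 2.52 and 1.84 with EXO-Post Palm. The groups overlapped over most of their range. The log2 fold change was 0.22 (95% interval -0.52 to 0.97, limma adjusted p = 0.852), with a difference of -0.00 on slide 1 and 0.38 on slide 3. Angpt2 was at -3.41, -3.33, -4.07 and -3.84 with EXO-Post BSA and at -3.51, -2.99 and -3.38 with EXO-Post Palm, with processed intensities of 50.6 to 142.1 that were well above background on all 7 arrays. Its log2 fold change was 0.37 (95% interval -0.21 to 0.95, limma adjusted p = 0.674) and 0.11 with slide as a block. These intervals include a rise of nearly 1 log2 unit for either angiopoietin, so a change of that size was not excluded at this number of arrays.

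The Vegfa probes were both well above background on all 7 arrays and neither passed. For A_52_P249424 the level was -0.37, -0.33, -0.37 and -1.02 with EXO-Post BSA and -0.49, -0.07 and -0.24 with EXO-Post Palm, with EXO-Post BSA replicate 4 below the rest. Its log2 fold change was 0.25 (95% interval -0.30 to 0.81, limma adjusted p = 0.768), or 0.09 without that array. For A_52_P638895 the level was 0.98, 1.80, 1.63 and 1.41 with EXO-Post BSA and 1.77, 1.93 and 0.82 with EXO-Post Palm, the lowest and the highest array both being EXO-Post Palm. Its log2 fold change was 0.06 (95% interval -0.68 to 0.79, limma adjusted p = 0.969). On this probe the difference was 0.38 on slide 1 and -0.58 on slide 3, whereas A_52_P249424 gave -0.14 and 0.78, so the probes moved in opposite directions on each slide.

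Vegfb, a ligand of Flt1 linked to fatty acid uptake, was at -0.31, -0.34, -0.98 and -0.58 with EXO-Post BSA and at -0.36, -0.54 and 0.06 with EXO-Post Palm. Only EXO-Post Palm replicate 3 lay above the EXO-Post BSA arrays, and the log2 fold change was 0.27 (95% interval -0.30 to 0.84, limma adjusted p = 0.760). Vegfc, a ligand of Flt4 that drives lymphatic growth, was at 0.16, 0.07, 0.23 and 0.17 with EXO-Post BSA. With EXO-Post Palm it was at -0.72, -0.21 and 0.27, 2 arrays below and 1 above all of the EXO-Post BSA arrays. Its log2 fold change was -0.38 (95% interval -0.96 to 0.20, limma adjusted p = 0.661), and -0.83 in the authors' own log2 values (adjusted p = 0.270).

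**Figure D4:**
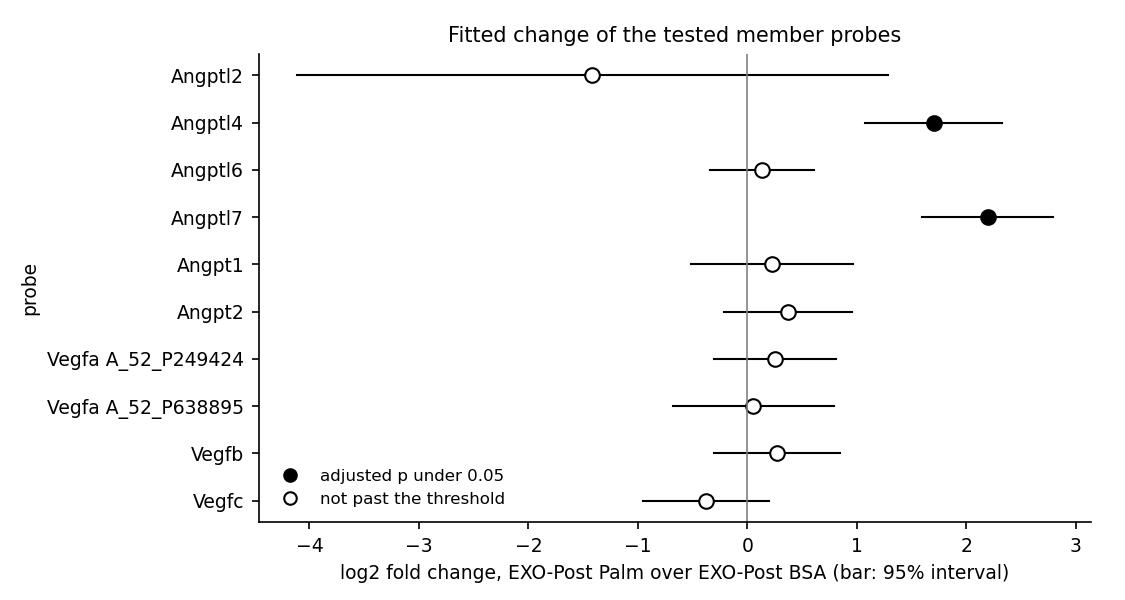
Fitted log2 fold change of EXO-Post Palm over EXO-Post BSA (x axis) with its 95% interval for the 10 tested probes (y axis), filled where the adjusted p is under 0.05. The intervals of Angptl4 and Angptl7 lie above 0, those of the other 8 include it, and that of Angptl2 is the widest.

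Around these ligands, 6 lists of related genes were read from the same fit, with 1 probe per gene. Together they hold 132 genes, of which 111 were tested, 2 rose and none fell by limma. Of all 17477 tested genes 0.561% were called. Apln, 1 of the 2, was tested only because it was well above background with EXO-Post Palm, so nothing is read from this count. Of the 111, 25 (22.5%) had an unadjusted p under 0.05, against 10.2% of all tested genes. The lists were chosen with earlier results of these data known, so this share is a description. The receptor list had 8 tested genes of 14, and none passed. Tek, Tie1 and Flt4 were well above background on no array and Flt1 on 4 of 7, so signal for the Tek family was not detected in these cells. Kdr, the main VEGF receptor of endothelium, was well above background on all 7 arrays, at 2.20 ± 0.19 (SD, n = 4) and 2.12 ± 0.53 (SD, n = 3). Its log2 fold change was -0.07 (limma adjusted p = 0.948). The largest rise in that list was that of the co-receptor Nrp1 (0.14, adjusted p = 0.946) and the largest fall that of the integrin subunit Itgb1 (-0.55, adjusted p = 0.563), for which a further probe gave -0.12.

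Both genes that rose were among other secreted angiogenic and angiostatic factors, of which 31 of 35 were tested. Apln, an angiogenic peptide, was at -6.33, -5.29, -6.05 and -5.79 with EXO-Post BSA, not well above background on any of these arrays, and at -2.05, -2.99 and -0.57 with EXO-Post Palm. A bound used the lowest signal well above background on each EXO-Post BSA array, or the Apln level where that was higher (replicate 2). Against it Apln was at least 8.59-fold higher with EXO-Post Palm (limma adjusted p = 0.0179). The p-value is a description, since the gene entered the test through the group where it was high. The log2 fold change of Apln was 2.43 in the authors' own values (adjusted p = 0.0374) and 1.59 with normexp correction and quantile normalisation of the median spot signal, where it did not pass (adjusted p = 0.0847). Both lie below that bound, which therefore holds for the processed signal only. Grem1, a secreted BMP antagonist that also binds Kdr, was at 3.04, 3.31, 2.46 and 3.38 with EXO-Post BSA and at 4.61, 4.64 and 5.28 with EXO-Post Palm. The fitted change was 1.79 on the log2 scale (limma adjusted p = 0.0436, standard error 0.293). Slide as a block gave 1.63 (adjusted p = 0.0669), and the adjusted p was 0.0520 to 0.180 when 1 array at a time was left out, so it passed in none of those 7 fits.

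Among the secreted factors well above background on all 7 arrays, Hgf, the ligand of Met, had the largest log2 fold change upwards, 2.11 (limma adjusted p = 0.0620), and Timp3, an inhibitor of metalloproteinases that also blocks VEGF binding to Kdr, the largest downwards, -1.44 (adjusted p = 0.0699). In this list 16 of 31 genes had an unadjusted p under 0.05, against 10.2% of all tested genes, in both directions, and the median was -0.14. Apln and Edn1, which are among the 16, were tested only through the group where they were high. The list was also chosen with earlier results of these data known, so this count is a description. The remaining VEGF family ligands were Figf (VEGF-D), at 0.80 (adjusted p = 0.289), and Pgf, at 0.48 (adjusted p = 0.521), named after their values were seen. For both the groups did not overlap, and 5.4% of all tested probes were higher in this way. The gap for Pgf was very small, with EXO-Post Palm replicate 2 at -2.463 and EXO-Post BSA replicate 3 at -2.466.

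None of the tested genes that share known regulators with Angptl4 and Vegfa passed. Over all tested genes 0.561% were called and 10.2% had an unadjusted p under 0.05, so a list this short would seldom hold a call. Whether PPARs or hypoxia signalling had a part was not tested. Of 23 tested PPAR target genes none was called (1 had an unadjusted p under 0.05), 12 were higher and the median log2 fold change was 0.00. Plin2, a lipid droplet protein, had the largest value upwards, 0.59 (limma adjusted p = 0.482), and Ucp3, a mitochondrial carrier, the largest downwards, -0.57 (adjusted p = 0.554). Pdk4 and Cpt1a, both PPAR targets of muscle, were at -0.29 and 0.46 (adjusted p = 0.687 and 0.517). Of 28 tested HIF and oxygen-responsive genes none was called either (3 had an unadjusted p under 0.05), with a median of -0.12. Ddit4 was at 0.62 (adjusted p = 0.502) and Pdk1 at -0.68 (adjusted p = 0.609).

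Lpl, the enzyme that Angptl4 inhibits, had a log2 fold change of 0.72 (limma adjusted p = 0.258), with levels of 1.89 ± 0.22 (SD, n = 4) and 2.61 ± 0.11 (SD, n = 3) that did not overlap. None of the 11 tested genes of the lipoprotein lipase axis and of ligand processing was called (2 had an unadjusted p under 0.05, against 10.2% of all tested genes). Mmp2, a gelatinase, was at 0.78 (adjusted p = 0.375) and Pcsk6, a proprotein convertase, at -0.68 (adjusted p = 0.584). Of 10 tested factors that act on Vegfa or Angptl4 transcription none was called (3 had an unadjusted p under 0.05), and the median was -0.30. Egr1 was at -0.67 (adjusted p = 0.434) and Stat3 at 0.14 (adjusted p = 0.874). A further Stat3 probe, dimmer but well above background on all 7 arrays, was at 1.02 (adjusted p = 0.316). On it the groups did not overlap, and 5.4% of all tested probes were higher in this way.

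**Figure D5:**
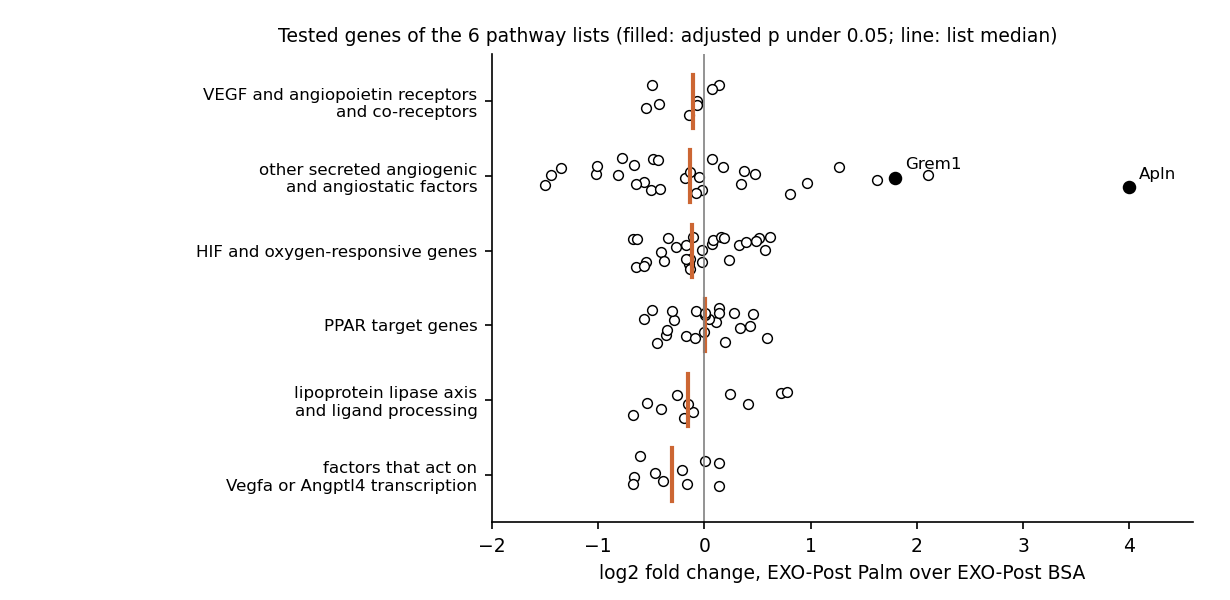
Log2 fold change of EXO-Post Palm over EXO-Post BSA (x axis) for each tested gene of the 6 lists (y axis, vertical scatter within a list has no meaning), filled where the adjusted p is under 0.05, with a line at each list median. Grem1 and Apln are the filled points, the value of Apln being a fit to signal near background with EXO-Post BSA, and the list medians lie between -0.30 and 0.00.

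As a description, the genes whose 7 array values ran most like those of a ligand were sought among 14048 other genes well above background on all 7 arrays. For Angptl4 they were Bub1 (Pearson's r = 0.998), Cenpl (0.995) and Cck (0.994), with log2 fold changes of 1.95, 1.13 and 4.20. For Angptl7 they were Cd53 (0.989), Pde4d (0.983) and Gdpd2 (0.981), at 2.17, 0.68 and 2.15. For the Vegfa probe A_52_P638895 they were Sil1 (0.977), Kpnb1 (0.958) and Lrrfip2 (0.958), at 0.02, 0.16 and 0.19. These values share the 7 arrays and, for Angptl4 and Angptl7, the difference between the groups.

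The cell type was read from marker lists, again with 1 probe per gene. All 15 differentiated muscle markers were well above background on all 7 arrays, Myog among them, as were 8 of 9 myoblast markers. Of 12 endothelial markers 5 were well above background on all 7 arrays and 6 on none (Cdh5, Emcn, Esam, Tek, Tie1 and Robo4). Of 10 adipocyte markers 2 were so on all 7, with Cfd on none and Adipoq on 1. On all 7 arrays 8 of 10 fibroblast and perivascular markers and 4 of 10 macrophage markers were well above background. No marker passed the threshold in any of the 6 lists, although 13 had an unadjusted p under 0.05 (Des was counted on both of its lists). By list these were 3 of 15 tested for differentiated muscle, 2 of 8 for myoblast and 4 of 9 for fibroblast and perivascular. For macrophage they were 2 of 5, for adipocyte 1 of 3 and for endothelial 1 of 6, against 10.2% of all tested genes.

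Some marker signals moved with the groups all the same. The sum of linear signals, in multiples of the array's 75th percentile, was 1067 to 1281 with EXO-Post BSA and 879.1 to 1040 with EXO-Post Palm for differentiated muscle. It was 248.0 to 272.8 and 160.2 to 215.5 for myoblast, 280.7 to 326.0 and 198.9 to 251.2 for fibroblast and perivascular, and 8.05 to 18.3 and 6.18 to 7.93 for macrophage markers. For adipocyte markers it was 1.02 to 1.23 and 1.23 to 1.99, and for endothelial markers 5.18 to 6.39 and 4.19 to 7.68, both overlapping. Such a sum is weighted towards its brightest probe, and without that probe each of the 4 differences without overlap was lost or turned. Macrophage markers without Itgam were at 1.91 to 2.49 with EXO-Post BSA and 2.68 to 4.34 with EXO-Post Palm, and 4 of the 5 tested were higher with EXO-Post Palm (median log2 fold change 0.45). Myoblast markers without Itga7 were at 48.1 to 59.3 and 55.7 to 74.5, fibroblast and perivascular markers without Acta2 at 152.4 to 236.4 and 146.8 to 166.4, and differentiated muscle markers without Myl1 at 860.1 to 1054 and 747.1 to 873.7, all overlapping. Adipocyte markers without Pparg were at 0.443 to 0.598 and 0.75 to 1.45, and endothelial markers without Kdr at 1.04 to 1.25 and 1.25 to 1.66. Of 15 tested markers of differentiated muscle 12 were lower with EXO-Post Palm, of 8 for myoblast 5, of 9 for fibroblast and perivascular 5, of 3 for adipocyte 2 and of 6 for endothelial 3. Over all 17477 tested genes 9346 were lower and 8131 higher. Whether the makeup of the cultures had a part in the Angptl4 and Angptl7 rises was not tested, and in RNA from whole cultures fewer cells of a type and less RNA per cell cannot be told apart.

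Within these lists the extremes were Lum (1.45) and Col1a1 (-1.64) for fibroblasts, Cebpa (1.28) and Pparg (-0.09) for adipocytes, Egfl7 (0.55) and Vwf (-0.12) for endothelium, Des (0.50) and Actc1 (-0.93) for differentiated muscle, and Des and Itga7 (-0.67) for myoblasts, none past the threshold. Macrophage markers included Cd14 (1.05) and Itgam (-1.63), also not past it. The further probes of Itgam, a leukocyte integrin, gave log2 fold changes of 0.16 and -0.55. Their EXO-Post BSA means were -4.05 and -4.01, against 3.32 for the probe in the list, and they were well above background on 6 and 5 arrays. The Itgam probes thus disagreed in level, and the one in the list made up 41.9 to 89.6% of the macrophage sum. The probe in the list was well above background on all 7 arrays, that of Ptprc on 2, and Lyz2 and Tyrobp were so on none.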

How the data were processed

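RNA of 7 cultures was measured on 1-colour Agilent mouse arrays. For each array the authors deposited scanner output, whose processed signal is a spot intensity after background subtraction, without normalisation across arrays. They also deposited a table of processed log2 values, whose normalisation is not given in the sources used here. The submitters' processing notes name Agilent Feature Extraction 9.1 and limma, while the file headers give 10.7.3.1, or 11.5.1.1 for EXO-Post BSA replicate 3. Samples were grouped by the deposited labels.

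Here log2 of the processed signal minus the array's 75th percentile over 43020 non-control spots was used. Spots marked as uneven or as outliers were left out and repeated spots averaged. Probes that 75% or more of a group's arrays showed well above background were fitted with limma 3.58.1 (R 4.3.3) on condition, with Benjamini-Hochberg adjustment over 21589 probes and a 2-sided threshold of 0.05. Single members also had an exact permutation test over 35 divisions of the arrays. Python 3.11.15, pandas 2.3.3 and scipy 1.17.1 served for the rest. Depth has no meaning for arrays, and their number limits the precision.

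On simulated data with 21137 probes the fit recovered 64 of 100 probes changed by 2 and 10 of 100 changed by 1 on the log2 scale, with 7 false calls among 81. Lists used the tested probe with the highest mean per gene. Named from a list were the genes past the threshold and the largest rise and fall among genes well above background on all arrays; Pdk4, Cpt1a, Lpl, Kdr, Figf and Pgf were added after their values were seen. The members, lists and rules were chosen with earlier results of these data known. Alternatives covered centring, normalisation, background correction, the authors' values, the probe filter, marked spots, slide and replicate blocks, array weights, the fit, the methods' t-test, the threshold and each array left out.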

Additional observations from a re-analysis of the deposited data

Results flagged for a closer look

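Dixon's test was applied to the 4 EXO-Post BSA arrays for 36 probes reported here, and 1 array stood apart for 2 of them, about the 1 in 20 that chance gives. Angptl4 was at 2.25 on EXO-Post BSA replicate 1, with the other 3 arrays between 2.08 and 2.11, so the gap of this array is small beside the rise with EXO-Post Palm, and without it the log2 fold change was 1.74 (limma adjusted p = 0.0949). Vegfa probe A_52_P249424 was at -1.02 on EXO-Post BSA replicate 4, with the others between -0.37 and -0.33, and without that array its log2 fold change was 0.09.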

How the results depend on the processing

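Over 229 values of the 10 tested probes under the alternatives, 200 kept their direction and their side of the threshold, 16 calls of Angptl4 or Angptl7 were lost and 13 values changed sign, while no probe gained a call. Angptl4 and Angptl7 were higher with EXO-Post Palm under every alternative run. Changes of the probe filter, of marked spots or of the threshold, the trended and robust fit and the t-test cannot move a member's fold change. Agreement of direction was therefore fixed in advance there, also among the 229 values. The replicate block gave the same fold changes as leaving out EXO-Post BSA replicate 4, the only array with that number. The main fit called 115 of all probes, 2 member probes and 2 list genes. Without a probe filter, with the replicate block and with the methods' t-test after adjustment, limma or the t-test called 0 of each, with 1900, 1933 and 2108 probes, and 2 member probes each time, at an unadjusted p under 0.05. Requiring a probe to be well above background on at least 1 array gave 40 probes, 1 member probe and 0 list genes, and centring on the array median gave 1 member probe. Slide as a random block gave 181 probes and 4 list genes, a trended and robust fit 173 and 4, and no adjustment of p 2169 and 25. Normexp correction and quantile normalisation on the median spot signal, chosen after seeing the data because the mean signal of the planned form is not in the output used for EXO-Post BSA replicate 3, gave 98 higher and 32 lower probes, against 100 and 15, and 1 list gene. With each array left out the counts were 4 (without EXO-Post Palm replicate 3) to 228 (without EXO-Post Palm replicate 2) probes, 0 to 2 member probes and 0 to 2 list genes.

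Values that changed sign were all far from the threshold. Angptl2 was at 0.44 with slide as a block, also when EXO-Post BSA replicate 3 and EXO-Post Palm replicate 2 were left out (added after seeing the data), and at 0.42 without EXO-Post Palm replicate 2. EXO-Post BSA replicate 3 and EXO-Post Palm replicate 2 are each alone on a slide, so both block fits must give the same estimate. Sign changes in both block fits are therefore 1 result for each probe. Angptl6 was at -0.049 in both block fits and at -0.036 without EXO-Post Palm replicate 2. The Vegfa probe A_52_P638895 was at -0.0032 with median centring, -0.033 in both block fits, -0.040 with array weights and -0.10, -0.075 and -0.16 when EXO-Post BSA replicate 1, EXO-Post Palm replicate 1 or EXO-Post Palm replicate 2 was left out. Over all fits that leave out 1 array the ranges were -2.42 to 0.42 for Angptl2, -0.036 to 0.22 for Angptl6 and -0.16 to 0.40 for this probe. The cause was not tested.

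The groups share replicate numbers 1 to 3, and nothing states whether the numbers pair the arrays. Deviations from the group means correlated at 0.12, -0.15 and -0.15 between arrays of the same number. With 4 and 3 arrays, and slides shared across numbers, these correlations cannot decide whether the arrays are paired. With the replicate block Angptl4 was at 1.69 (limma adjusted p = 0.208) and Angptl7 at 2.15 (adjusted p = 0.158), and 0 probes passed. Angptl1 was not well above background on any array, so no change can be given for it. With 4 arrays against 3, most changes of 1 log2 unit and many of 2 would be missed. The simulation recovered 10 of 100 and 64 of 100 of them.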

Other observations

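Angpt4, a ligand of Tek, is an angiopoietin and was not among the 10 genes. It was well above background on all 7 arrays, at -0.01, -0.10, -0.39 and 0.58 under EXO-Post BSA and at -1.34, 0.05 and -2.74 under EXO-Post Palm, with a log2 fold change of -1.37 (limma adjusted p = 0.478).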
